A study of Gallus gallus with 6 samples.

Results

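The 10 genes described here are the Notch ligands DLL1, DLL4, JAG1 and JAG2, the receptors NOTCH1 and NOTCH2, the receptor-modifying enzyme LFNG and the target genes HES1, HEY1 and HEY2. The genes were chosen with earlier results of these data known. Every probe set of the array annotated to 1 gene bearing any of these symbols was taken, without using its measured value. This gave 24 probe sets for 9 genes, out of 38439 probe sets and 13009 named genes. No probe set was matched to HES1, which is not analysed here. DLL4, HEY1 and HEY2 had 1 probe set each and the other 6 genes had several. Each gene is therefore described by all of its probe sets. The brightest one, by mean log2 signal over all 6 arrays, is called its first.

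Chick embryos were electroporated at stage HH3 and harvested at HH5-6, with an incubation of 12 h per the labels. Each pool of 4 embryos was sorted by FACS into both populations at the same time. All embryos carried Hb-eGFP together with a ubiquitous RFP plasmid that marks electroporated cells. Per the labels, the stretch from -255 to -204 bp of the chick Cerberus regulatory region and the minimal promoter of human beta-globin drive eGFP in it, whereas a legend of the study names another version of the construct for the arrays, so which version was used is not settled. Hb-eGFP+ cells (n = 3 arrays) were compared with the eGFP-/RFP+ cells (n = 3 arrays), which are all other electroporated cells of the embryo and therefore a mixture of tissues. The RNA, 40 ng a sample, went through a 2-cycle amplification and was hybridised to Affymetrix Chicken Genome Arrays, whose values are signal intensities on a linear scale with no read depth. The 3 arrays a group limit the precision, and the sources used here do not say which arrays share a pool.

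In the Notch pathway, a ligand of the Delta or Serrate/Jagged family on one cell binds a Notch receptor on its neighbour, the receptor is cut, and its intracellular part enters the nucleus and acts with RBPJ on target genes, many of them HES and HEY repressors. In the vertebrate gastrula the pathway is best known for the segmentation clock of the presomitic mesoderm and for left-right asymmetry at the node. In blood vessels it takes part in arterial identity and sprouting, and in the mouse it is needed for the blood stem cells that arise from arterial endothelium.

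The reporter matched the labels of the sorted populations. The GFP probe set had a mean signal of 17083 in the Hb-eGFP+ arrays and 926 in the RFP+ control arrays, a ratio of 18.5. By the brightest probe set, 10 of 10 markers of hemangioblasts, blood progenitors and endothelium were higher in the Hb-eGFP+ arrays, against 5.74% of all genes. All of these markers but KDR are on the study's list of genes selected on the same samples, so their count is no independent check of the labels. The medians of the 6 arrays lay between 87.7 and 91.1, and no array stood apart from its group (Spearman 0.983 to 0.991 within groups and 0.964 to 0.979 between them). The arrays also carry 56 probe sets for reporter sequences other than GFP. The 90th percentile of their mean signals was 93.2 in the Hb-eGFP+ and 84.4 in the RFP+ control arrays, and a group mean at or under this value is called near the reporter level, where the size of a fold is not exact. GFP itself gave 992, 836 and 949 in the RFP+ control arrays, well above this level. GFP transcript was therefore measured in the control cells too, and its source was not tested.

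DLL1, JAG1, LFNG and HEY1 were lower in the Hb-eGFP+ cells by at least 1 probe set, and no member was higher. Probe sets were called at an adjusted p below 0.05 by limma, with Benjamini-Hochberg adjustment over all 38439 probe sets. Of the 24 member probe sets, 5 (20.8%) were lower, against 5.05% of all probe sets, and 0 were higher, against 4.02% of all (9.07% in either direction). At an unadjusted limma p below 0.05, 6 were lower and 1 was higher. No share over all probe sets was taken at this threshold, here or for the lists below, so such counts have no background. By the study's own type of rule, a lower 90% bound of the fold above 1.7, 1 was lower and 0 were higher, against 1.30% and 0.718% of all probe sets. Counted by gene, 4 of 9 were lower by at least 1 probe set, against 9.55% of all genes, and 0 of 9 were higher, against 7.46%. With 24 probe sets and 9 genes, 0 higher is near the background. The members were chosen with earlier results of these data known, so the shares that were lower are no independent test. With the replicate number as a block, 3 probe sets of 2 genes (DLL1 and HEY1) were lower and the calls of JAG1 and LFNG were lost. The median log2 fold change of the members (-0.0031) was near that of all probe sets (0.017), with 12 probe sets below 0 and 12 above. The signals of the 2 groups did not overlap in 6 member probe sets that were lower and 3 that were higher, where 14.1% and 16.0% of all probe sets did so, 30.0% together.

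**Figure D1:**
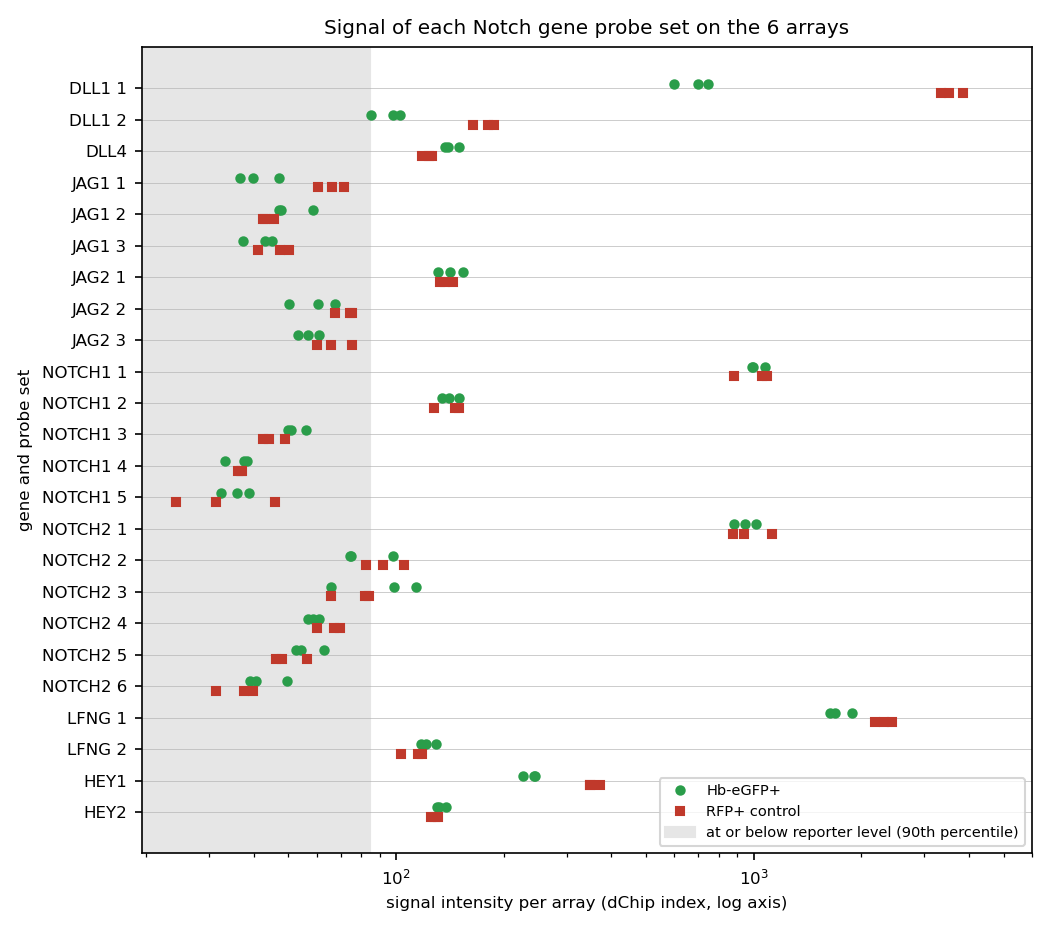
Signal intensity of all 24 probe sets on each array (log axis), with circles for the Hb-eGFP+ and squares for the RFP+ control arrays and shading up to the RFP+ reporter level. The first DLL1 probe set was at 598 to 744 in the Hb-eGFP+ and 3336 to 3839 in the RFP+ control arrays, while those of NOTCH1 and NOTCH2 overlapped.

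DLL1, the Delta-type ligand of the presomitic mesoderm and neural progenitors, had the greatest change among the members. Its first probe set gave 699, 598 and 744 in the Hb-eGFP+ arrays and 3525, 3839 and 3336 in the RFP+ control arrays. Every control array was several times brighter than every Hb-eGFP+ array, and neither group had an array standing apart. The means were 680 ± 74.5 (SD, n = 3) and 3566 ± 254 (SD, n = 3), a level 5.24 times as high in the controls, and the log2 fold change was -2.39 (SE 0.11, 95% interval -2.65 to -2.14, limma adjusted p = 2.8e-05). The lower bound of this fold was 4.64, the only member bound above 1.7. DLL1 was among the genes that the study selected on these samples, so its direction is not independent evidence. In the Hb-eGFP+ cells the DLL1 signal stayed well above the reporter level, so the transcript was measured in this population too. In sorted populations such as these, fewer cells of a type and less RNA per cell cannot be told apart.

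The second DLL1 probe set was much dimmer and changed less. It gave 98.3, 85.3 and 102 in the Hb-eGFP+ arrays and 181, 188 and 164 in the RFP+ controls. The groups again did not overlap, but the Hb-eGFP+ mean of 95.3 lay just above the reporter level. Its log2 fold change was -0.90 (SE 0.10, limma adjusted p = 0.0015). The difference between the log2 fold changes of the 2 DLL1 probe sets was -1.49 (SE 0.028), and on no array did it overlap the other group. Its exact permutation p was 0.1, two-sided, the smallest that 3 arrays against 3 can give when taken as unpaired. After adjustment over the 8 such differences computed among the members it was 0.11. The direction of DLL1 was therefore the same by both probe sets, while its size depended on which was read.

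The other Delta-type ligand on the array, DLL4, known from arterial and sprouting endothelium, gave 150, 137 and 140 in the Hb-eGFP+ arrays and 126, 123 and 118 in the RFP+ control arrays. The Hb-eGFP+ arrays were all above the controls, by a small margin. The log2 fold change was 0.22 (SE 0.08, 95% interval 0.03 to 0.40), with a limma adjusted p of 0.15 over probe sets and 0.065 when fitted over genes, so DLL4 did not pass the test. The log2 fold change of DLL1 minus that of DLL4 was -2.61 (SE 0.097, exact permutation p = 0.1, two-sided, 0.11 adjusted over 8). The difference between the probe sets of the 2 Delta-type ligands separated the arrays of the groups without overlap, in a design whose exact test cannot pass 0.05. Its size need not be that of the genes, since 2 probe sets of DLL1 itself differed by -1.49. The DLL4 means of 142 and 122 also lay not far above the reporter level of 93.2 and 84.4.

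The Jagged ligands were dim. JAG1, a ligand of endothelium, somites and inner ear, was read by 3 probe sets that disagreed. The first gave 36.7, 39.9 and 47.2 in the Hb-eGFP+ arrays and 71.4, 66.1 and 60.7 in the controls. These groups did not overlap, but both means lay near the reporter level, and the fold (log2 -0.68, SE 0.12, 95% interval -0.95 to -0.41, limma adjusted p = 0.011) is not exact. The second probe set gave 58.6, 47.0 and 47.6 against 42.4, 43.1 and 45.5, which is higher on every Hb-eGFP+ array, with a log2 fold change of 0.22 and a limma adjusted p of 0.27. The third overlapped between groups (log2 fold change -0.15, limma adjusted p = 0.48). The first was the brightest in the controls only, since its Hb-eGFP+ mean of 41.3 was below the 51.1 of the second. The first 2 JAG1 probe sets differed in log2 fold change by -0.90 (SE 0.22, exact permutation p = 0.1, two-sided, 0.11 adjusted over 8), so the call of JAG1 rests on 1 of its 3 probe sets. This call was lost with the replicate number as a block (limma adjusted p = 0.054).

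JAG2, the other Jagged ligand, was not called by any of its 3 probe sets. The first gave 142, 131 and 154 in the Hb-eGFP+ arrays and 137, 133 and 144 in the controls. The groups overlapped, and the interval of the log2 fold change, from -0.17 to 0.25 around 0.04, holds only small changes in either direction (limma adjusted p = 0.83). The other 2, both near the reporter level, had log2 fold changes of -0.29 and -0.23 (limma adjusted p = 0.19 and 0.25), the former without overlap between the groups.

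Transcripts of both receptors were measured in both populations at similar levels. NOTCH1, the receptor that in the mouse is needed for the first blood stem cells, gave 1075, 996 and 989 in the Hb-eGFP+ arrays and 1056, 880 and 1093 in the RFP+ control arrays by its first probe set. NOTCH2, a receptor that is broadly expressed in the embryo, gave 1012, 883 and 947 against 938, 1128 and 873. The arrays of the groups overlapped for both receptors by these first probe sets. The log2 fold change was 0.02 for NOTCH1 (95% interval -0.22 to 0.26, limma adjusted p = 0.94) and -0.04 for NOTCH2 (95% interval -0.31 to 0.23, limma adjusted p = 0.87), and the receptors did not differ detectably from each other in response (difference 0.06, SE 0.21, exact permutation p = 0.9, two-sided). The 4 further probe sets of NOTCH1 and 5 of NOTCH2 were dimmer, and 3 of the 5 NOTCH1 and 4 of the 6 NOTCH2 probe sets were near the reporter level in both groups. None of them was called, with log2 fold changes from -0.01 to 0.21 for NOTCH1 and from -0.18 to 0.25 for NOTCH2. The third NOTCH1 probe set, near the reporter level in both groups, was higher without overlap (limma adjusted p = 0.22).

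LFNG, a glycosyltransferase that adds sugars to the EGF repeats of Notch receptors and cycles in the presomitic mesoderm, was bright in both populations. Its first probe set gave 1883, 1633 and 1683 in the Hb-eGFP+ arrays and 2181, 2429 and 2317 in the controls. Every control array was above every Hb-eGFP+ array, with means of 1733 ± 133 (SD, n = 3) and 2309 ± 124 (SD, n = 3). The log2 fold change was -0.42 (SE 0.09, 95% interval -0.63 to -0.20, limma adjusted p = 0.031). This call was lost when any array other than Hb-eGFP+ replicate 1 was left out, with limma adjusted p up to 0.12 and log2 fold changes between -0.46 and -0.37, and with the replicate number as a block (limma adjusted p = 0.098). The second LFNG probe set gave 118, 129 and 121 against 103, 118 and 116 and was not called (log2 fold change 0.13, limma adjusted p = 0.43). The difference between the 2 LFNG probe sets in log2 fold change was -0.54 (SE 0.10, exact permutation p = 0.1, two-sided, 0.11 adjusted over 8).

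Of the 2 target genes among the members on the array, HEY1 was lower and HEY2 was not called. HEY1, a basic helix-loop-helix repressor induced by Notch in endothelium and somites, gave 245, 244 and 227 in the Hb-eGFP+ arrays and 348, 371 and 348 in the RFP+ control arrays. The groups were well apart and tight within themselves, at 238 ± 10.1 (SD, n = 3) and 356 ± 13.5 (SD, n = 3), all above the reporter level. The log2 fold change was -0.58 (SE 0.08, 95% interval -0.76 to -0.39, limma adjusted p = 0.0039), and HEY1 passed the test in each fit that left out 1 array. HEY2, the related repressor known from arterial endothelium and heart, gave 130, 132 and 138 against 129, 131 and 126. These groups overlapped, and the log2 fold change of 0.06 had an interval from -0.12 to 0.23 (limma adjusted p = 0.71). The difference of HEY1 and HEY2 in log2 fold change was -0.63 (SE 0.065, exact permutation p = 0.1, two-sided, 0.11 adjusted over 8). Minus that of HEY1, the log2 fold change of the first DLL1 probe set was -1.82 (SE 0.12). Minus that of LFNG, it was -1.98 (SE 0.10). Each had the same exact permutation p of 0.1, two-sided, and 0.11 adjusted over 8. These 3 are differences between probe sets, as are the 2 of DLL1 (-1.49), so their size need not be that of the genes.

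**Figure D2:**
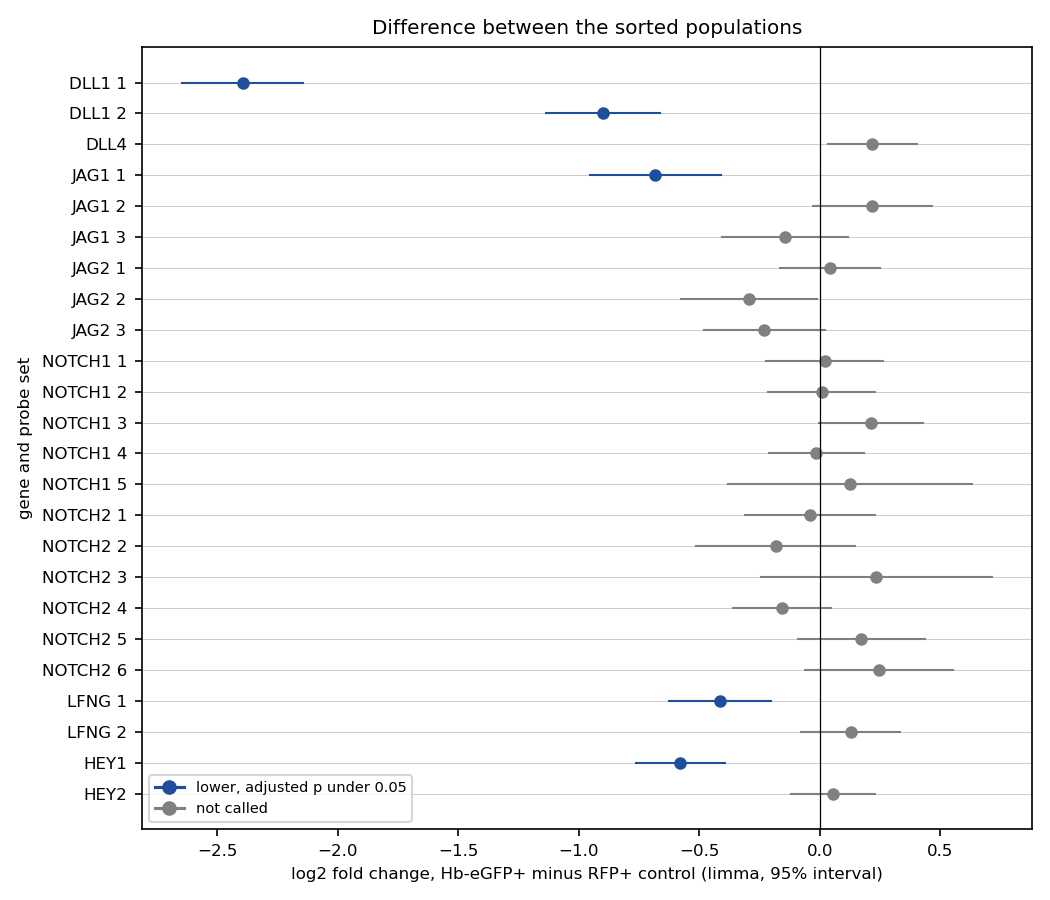
Log2 fold change (Hb-eGFP+ minus RFP+ control) of all 24 member probe sets, with lines for the 95% interval from limma, blue for those called lower and grey for those not called. The 5 called probe sets belong to DLL1, JAG1, LFNG and HEY1, and those not called lie between -0.29 and 0.25.

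The 19 member probe sets that were not called had log2 fold changes between -0.29 and 0.25 and limma adjusted p between 0.15 and 0.97. Of these, 11 were near the reporter level in both groups, as was the called JAG1 probe set. The share of all probe sets near this level was not taken, and the array medians of 87.7 to 91.1 lay close to it. For the dim probe sets a missing call does not show an unchanged level.

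Genes with profiles most like that of DLL1 were found by the root mean square difference of centred log2 signal over the 6 arrays from its first probe set. The closest were SALL1, a zinc finger transcription factor (0.067), PIK3R5, a regulatory subunit of PI3-kinase (0.089), F5, coagulation factor V (0.093), RELN, the extracellular protein reelin (0.12), and SLC14A2, a urea transporter (0.12). All 5 were lower in the Hb-eGFP+ cells, with log2 fold changes of -2.39, -2.51, -2.32, -2.37 and -2.46 in that order. With 2 groups, such a profile is mostly the difference between the groups, so the list holds genes with a fall of similar size. For DLL4, the closest were COX8A (0.013), a subunit of cytochrome c oxidase, PAQR3 (0.016), IAH1 (0.019), ANKRD10 (0.019) and APPL2 (0.019), none of them called.

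**Figure D3:**
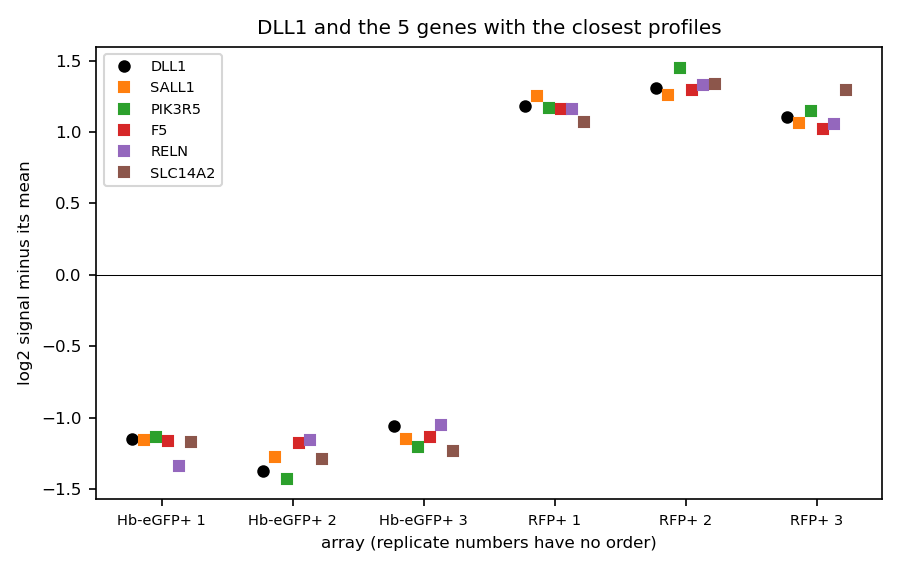
Log2 signal minus its mean over the 6 arrays for the first DLL1 probe set (circles) and the 5 closest genes (squares), by array. All 6 genes are below 0 on each Hb-eGFP+ array and above 0 on each RFP+ control array.

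Around these genes, 53 of 69 other listed entries of the pathway were on the array, by 130 probe sets. By the brightest probe set of each gene, 7 were lower and 3 were higher, and by any probe set 8 were lower and 3 higher. Over all genes, 7.52% were lower and 5.74% higher by the brightest probe set, and 9.55% and 7.46% by any probe set. The 3 higher genes are near the background by either count. The median log2 fold change of the 53 was -0.045, against 0.012 over all genes.

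Among 6 other ligands, CCN3 and DNER were lower and EGFL7 was higher, where 7.52% of all genes were lower and 5.74% higher. CCN3, a secreted matrix protein that in mammalian cells binds NOTCH1, gave 70.4, 61.5 and 51.6 in the Hb-eGFP+ arrays and 370, 333 and 292 in the controls (log2 fold change -2.44, SE 0.14, limma adjusted p = 7.4e-05). DNER, a transmembrane EGF-repeat protein of neurons, gave 54.1, 56.5 and 62.3 against 140, 164 and 129 (log2 fold change -1.32, SE 0.11, limma adjusted p = 0.00041). Neither gene overlapped between groups, and both were near the reporter level in the Hb-eGFP+ cells. Each was called by 1 probe set, of 2 for CCN3 and of 3 for DNER. The called DNER probe set was the brightest in the controls only, since another had a higher Hb-eGFP+ mean (73.2 against 57.7). EGFL7, an EGF-repeat protein secreted by endothelium that in mammalian cells interferes with Notch signalling, went the other way, with 1201, 1133 and 1088 against 663, 624 and 692 (log2 fold change 0.79, SE 0.08, limma adjusted p = 0.0011). Of its 5 probe sets, 4 were higher, by 1.73 to 3.46 times.

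Of 7 other genes of receptor glycosylation, among them POFUT1, RFNG and MFNG, 0 were lower and 0 higher by limma, also 0 and 0 at an unadjusted p below 0.05 and 0 and 0 by the lower bound. Over all genes the limma shares were 7.52% lower and 5.74% higher, so 0 calls in lists of this size are near the background. Of 6 cleavage genes, among them the proteases ADAM10 and ADAM17, limma called 0 and the lower bound 0, and 1 (NCSTN, a subunit of gamma-secretase) was lower at an unadjusted limma p below 0.05. NCSTN gave 782, 945 and 927 in the Hb-eGFP+ arrays against 1109, 1013 and 1173 in the controls, without overlap, with a log2 fold change of -0.31 (SE 0.11, limma adjusted p = 0.12).

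Of 11 genes for ubiquitination and trafficking of ligands and receptors, none was higher, which is near the background of 5.74% of all genes. Of the 11, 3 were lower, against 7.52% of all genes. They were NEURL1, whose Drosophila counterpart acts on Delta (log2 fold change -0.58, SE 0.11, limma adjusted p = 0.019), FBXW7, which marks the intracellular part of Notch for degradation (-0.39, SE 0.07, limma adjusted p = 0.019), and ITCH, a ubiquitin ligase that in the mouse acts on Notch (-0.36, SE 0.08, limma adjusted p = 0.035). NEURL1 was called by 1 of its 3 probe sets, and its others had log2 fold changes of -0.10 and 0.23. ITCH was called by 1 of 4, and its others, at 0.28, 0.23 and 0.08, had the opposite sign. None of the 3 calls of NEURL1, FBXW7 and ITCH held throughout. NEURL1 lost its call when any 1 Hb-eGFP+ array was left out, FBXW7 without Hb-eGFP+ replicate 1 or 3 or RFP+ replicate 1 or 2, and ITCH without any 1 array, with limma adjusted p up to 0.078, 0.070 and 0.11. All 3 calls were also lost with the replicate number as a block, and that of ITCH under quantile normalisation and median centring as well. MIB1, the ligase that acts on Notch ligands in vertebrates, was not called, at 1697 ± 79.4 (SD, n = 3) against 1780 ± 88.9 (SD, n = 3). DTX2, of the same list, gave 147, 140 and 152 in the Hb-eGFP+ arrays and 129, 129 and 101 in the controls. It was higher without overlap and was not called (log2 fold change 0.30, limma adjusted p = 0.16).

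Of 17 genes of the nuclear complex and its corepressors, 1 was higher and none was lower by the brightest probe set. The shares over all genes were 5.74% higher and 7.52% lower, so both counts are near the background. KAT2B, an acetyltransferase that acts as coactivator, gave 164, 164 and 147 in the Hb-eGFP+ arrays and 92.7, 104 and 121 in the controls (log2 fold change 0.58, limma adjusted p = 0.021), by 1 of its 3 probe sets. Its call was lost without any 1 array except RFP+ replicate 3, with limma adjusted p up to 0.083, and with the replicate block. A second probe set of the corepressor TLE4 was lower (log2 fold change -0.34, limma adjusted p = 0.025), but passed neither with the replicate block nor without any 1 array, with limma adjusted p up to 0.099, while its brightest was not called (-0.30, limma adjusted p = 0.076). RBPJ, the DNA-binding partner of Notch, had a log2 fold change of 0.21 that did not pass (limma adjusted p = 0.22). HDAC2, of the same list, gave 3205, 3974 and 3273 in the Hb-eGFP+ arrays and 4636, 4427 and 4999 in the controls. It was lower without overlap and missed the threshold narrowly (log2 fold change -0.43, limma adjusted p = 0.05004). CIR1, also of this list, was higher without overlap and was not called (log2 fold change 0.11, limma adjusted p = 0.41).

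Of 6 further genes listed beside the targets, 2 were lower and 1 was higher, where 7.52% of all genes were lower and 5.74% higher. This list holds relatives of the HES and HEY repressors and was not limited to established Notch targets. HES6, a family member that in the mouse counteracts HES1, gave 62.3, 52.9 and 59.3 in the Hb-eGFP+ arrays, near the reporter level, and 157, 183 and 152 in the controls (log2 fold change -1.49, SE 0.11, limma adjusted p = 0.00019). BHLHE41 and BHLHE40, related repressors that also act in the circadian clock, moved in opposite directions by their brightest probe sets. BHLHE41 gave 262, 262 and 263 against 361, 381 and 381 (log2 fold change -0.51, limma adjusted p = 0.0049), and BHLHE40 gave 290, 235 and 273 against 115, 141 and 99.3 (1.18, SE 0.15, limma adjusted p = 0.0025), the latter by 1 of its 4 probe sets. The other BHLHE40 probe sets were not called, with log2 fold changes of 0.23, -0.03 and -0.24. The last of these was lower without overlap between the groups. The called BHLHE40 probe set was the brightest of its gene in the Hb-eGFP+ arrays (266). In the controls its mean of 119 was below the 155 and 149 of 2 others. Its choice as brightest therefore rests on the group where it is high. HES4 gave 1477, 887 and 1059 against 714, 877 and 828, higher without overlap between the groups. Of its Hb-eGFP+ arrays 1 lay well above the other 2, and HES4 was not called (log2 fold change 0.47, SE 0.19, limma adjusted p = 0.18). HES5 and NRARP, which are classical Notch targets, had log2 fold changes of 0.05 and 0.03 and were not called. NRARP was near the reporter level in both groups (means 41.9 and 40.8), and HES5 lay not far above it (110 and 107). For such dim genes a missing call does not show an unchanged level.

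**Figure D4:**
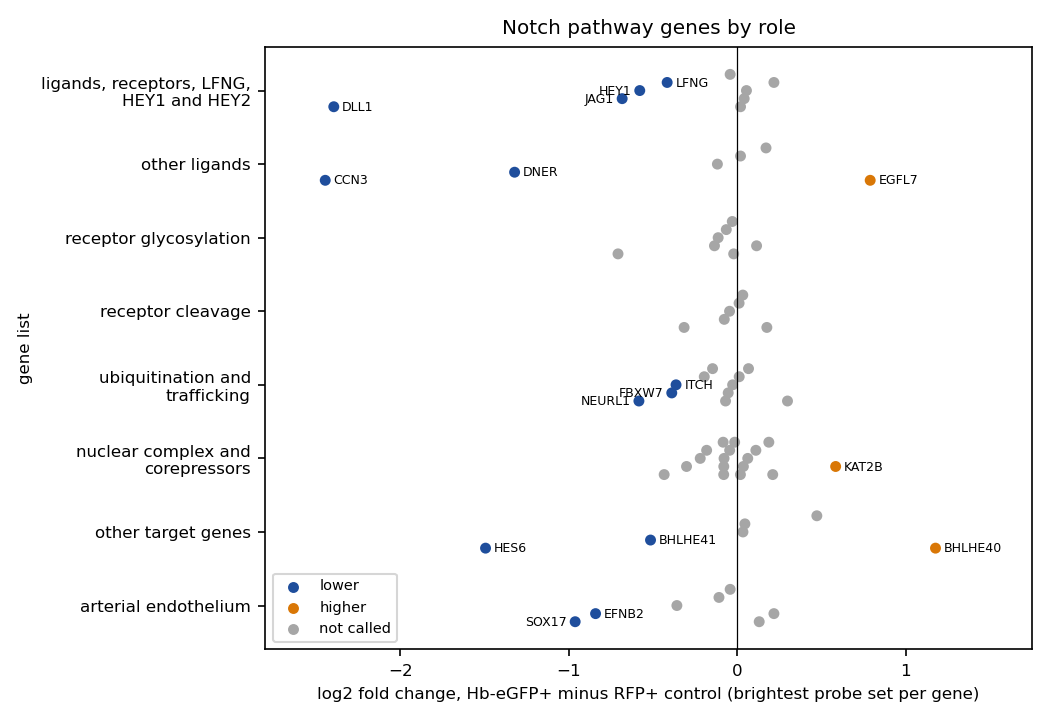
Log2 fold change (Hb-eGFP+ minus RFP+ control) of the brightest probe set of each Notch pathway gene, by role, with called genes named and coloured by direction. DLL1 (-2.39) and CCN3 (-2.44) lie farthest to the left and BHLHE40 (1.18, by 1 of its 4 probe sets) farthest to the right. Brightness was taken over both groups, and for BHLHE40 the choice rests on the Hb-eGFP+ arrays.

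Of 7 genes of arterial endothelium on the array, to which DLL4 also belongs, 2 were lower and none was higher by the brightest probe set. Over all genes 7.52% were lower and 5.74% higher, so 0 higher of 7 is near the background. SOX17, a transcription factor of definitive endoderm as well as of arterial endothelium, gave 5757, 4880 and 4960 in the Hb-eGFP+ arrays and 10418, 10870 and 9083 in the controls (log2 fold change -0.96, SE 0.11, limma adjusted p = 0.0015) and was lower by both of its probe sets. EFNB2, the ephrin ligand of arterial endothelium, was near the reporter level in both groups (log2 fold change -0.84, limma adjusted p = 0.00088). DLL4 (0.22), NRP1 (-0.36), UNC5B (0.13), GJA4 (-0.04) and GJA5 (-0.11) did not pass the test.

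Markers of hemangioblasts and of other tissues were read by the brightest probe set of each gene. By that measure 7.52% of all genes were lower and 5.74% higher. Of 8 presomitic and paraxial mesoderm markers, 6 were lower in the Hb-eGFP+ cells and none was higher, and their summed signal was 1173 to 1229 in the Hb-eGFP+ and 8121 to 8245 in the RFP+ control arrays. MSGN1, a presomitic mesoderm transcription factor, was at 205 in the Hb-eGFP+ and 2984 in the control arrays (log2 fold change -3.87), while TBX6 was near the reporter level in both groups (54.4 and 54.3). Of 8 neuroectoderm markers, 7 were lower, with summed signals of 1436 to 1605 and 10152 to 10280. The same held for 5 of 8 primitive streak markers (7792 to 8138 against 11708 to 12223), 4 of 7 markers of the node and axial mesendoderm (1163 to 1359 against 2781 to 3384) and 3 of 5 endoderm markers (12406 to 12911 against 20383 to 21275), and none of these lists had a higher member. In lists of 5 to 8 genes, 0 higher is near the background. The sums are carried by the brightest genes and are not amounts of tissue. TBXT (5291 and 8004) and CDX2 (1994 and 1846, not called) made up most of the streak sums, beside WNT8A at 148 and 736. SOX17 (5199 and 10124) and GATA5 (5530 and 6492, not called) made up most of the endoderm sums. MSGN1, FOXC2, OTX2, WNT8A and SOX17 among these markers are also on the study's list of selected genes. Of 3 smooth muscle markers, limma called 0, the lower bound 0, and 1 was lower at an unadjusted limma p below 0.05. For a list of 3, 0 calls are near the background too. ACTA2 (57.6 and 54.6) and MYH11 (47.5 and 49.3) were near the reporter level in both groups, so their missing calls do not show an unchanged level. TAGLN was lower without overlap, at 185 in the Hb-eGFP+ and 241 in the control arrays (log2 fold change -0.38, limma adjusted p = 0.056). The 10 markers of hemangioblasts, blood progenitors and endothelium summed to 36104 to 38311 in the Hb-eGFP+ and 14620 to 14792 in the control arrays. No value in the files was listed at 0, and the part of these tissues in the values of the Notch genes was not tested.

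**Figure D5:**
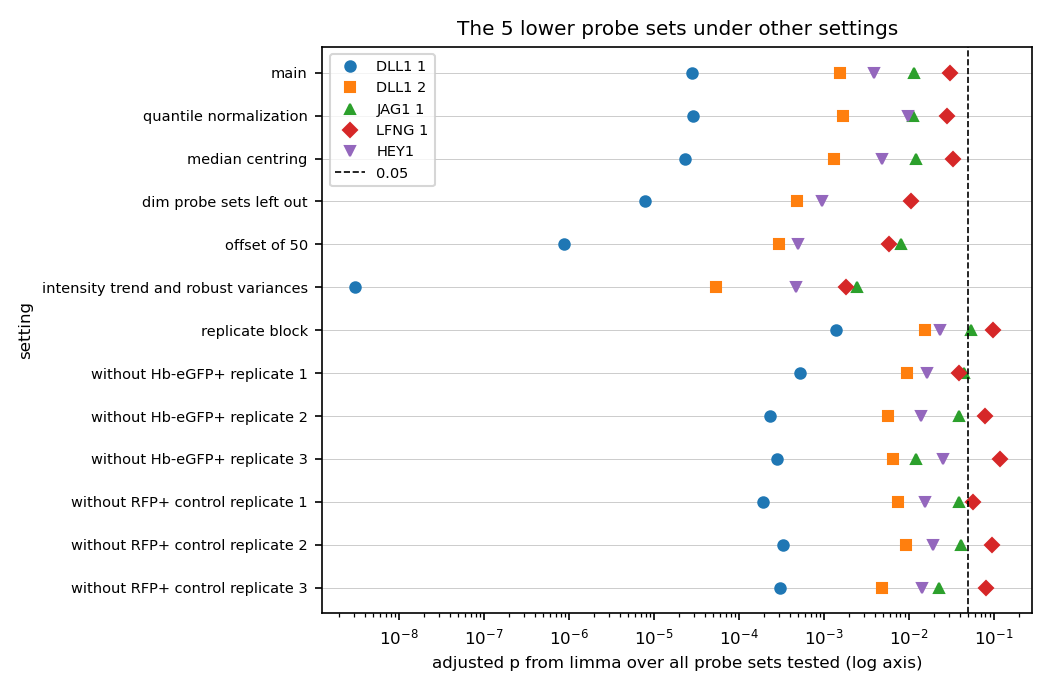
Limma adjusted p (log axis) of the 5 called member probe sets in the fit described here and in each other fit over probe sets, with a dashed line at 0.05. Both DLL1 probe sets and HEY1 stay left of the line in these fits, JAG1 crosses it with the replicate block, and LFNG with the block and in 5 of the 6 fits that left out 1 array. Rules that ask for a fold of 1.7 are not drawn. HEY1, JAG1 and LFNG passed none of these rules, and the second DLL1 probe set missed the lower bound.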

How the data were processed

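The arrays were scanned with GCOS 1.4, per the labels. Per probe set, the authors deposited 1 linear signal intensity, the index that dChip fits to the perfect-match probes after normalising the arrays. How dChip normalised them, and any background step, are not given in the sources consulted. Intensities were set to at least 1, which changed none, and taken to log2. Groups were compared over all 38439 probe sets with limma (lmFit, eBayes, two-sided, group only). Replicates are labelled biological. For the lower bound of the fold, the array-to-array SD stood in for dChip's own errors. Single differences were tested by exact permutation over the arrays as if unpaired. Arrays that share a pool are not known, so this p takes no account of the shared pools.

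The array's annotation names 1 gene for 27168 probe sets, several for 177 and none here for 11094. The RefSeq table of GRCg7b, used for current names only, held the gene IDs of 26853 probe sets. CCN3 was listed under its older symbol too.

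The members and gene lists were chosen with earlier results of these data known. Named genes are all members, the 4 genes of smallest adjusted p per list and direction, the 5 profiles closest to DLL1 and DLL4, and some markers. POFUT1, RFNG, MFNG, ADAM10, ADAM17, NCSTN, MIB1, DTX2, CIR1, HDAC2, RBPJ, HES4, HES5 and NRARP fall outside this rule. So do TLE4, called by a dimmer probe set only, and the arterial genes without a call. The values of all these genes were known when they were picked. The limma fit was tested on simulated data. The software was limma 3.58.1 in R 4.3.3, and NumPy 2.4.6 and pandas 2.3.3 in Python 3.11.15.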

Additional observations from a re-analysis of the deposited data

How the results depend on the processing

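No direction of a called result turned when single arrays were omitted, when the replicate number was a block, when 50 was added before log2, when dim probe sets were dropped, under median centring or quantile normalisation, or with robust variances and a trend. With the replicate block, 3 member probe sets (2 genes) were lower instead of 5 (4 genes), JAG1 and LFNG passing no more (adjusted p = 0.054 and 0.098), and over all probe sets 1248 were lower and 900 higher instead of 1941 and 1545. Deviations of same-numbered arrays had correlations of -0.12, -0.05 and 0.10, and 1 of 3 Hb-eGFP+ arrays was closest to its own number. Whether a number marks a shared pool is not stated, so the pairing is unknown and the numbers were not taken as pairs. With the lower bound above 1.7 in place of limma, 1 member probe set (1 gene) was lower, and 501 of all probe sets were lower and 276 higher. With a fold of at least 1.7 beside the adjusted p, 2 member probe sets (1 gene) were lower, and 777 and 430 of all. With the mean over a gene's probe sets, 2 member genes were lower. Of the other pathway genes, 7 were lower and 3 higher, against 4 lower with the block, 3 lower and 1 higher by the lower bound and 3 lower with the minimum fold (alternatives for these genes chosen after seeing the data). Leaving out 1 array gave 4 to 5 member probe sets and 3 to 4 genes lower, 0 higher, 4 to 6 other pathway genes lower and 2 to 3 higher, and 1102 to 1721 of all probe sets lower and 811 to 1296 higher. The fewest were without Hb-eGFP+ replicate 3 (1102 and 811) and replicate 1 (1187 and 856), and without RFP+ replicate 1 there were 962 higher. For the 2 DLL1 probe sets and HEY1, adjusted p stayed at or below 0.0014, 0.015 and 0.026. Removing dim probe sets left JAG1 untested. The cause of these changes was not tested. Signals near the reporter level limit JAG1, JAG2 and most receptor probe sets.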
